A study of Mus musculus with 27 samples.

Results

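The genes described here are 10 genes by which astrocytes, the star-shaped support cells of the brain, are commonly recognised: Aqp4, Gfap, Aldh1l1, Slc1a2, Slc1a3, S100b, Gja1, Aldoc, Sparcl1 and Fabp7. They were taken by gene symbol from a table of read counts with 55416 gene rows. All 10 were found, and all 10 passed the filter on low counts in every comparison. RNA was sequenced from whole brains of mouse fetuses of 3 strains at day (d) 12, 15 or 17 of gestation, and each of the 9 groups has 3 libraries. AKR/J is an inbred strain that the study treats as short-lived, C57BL/6J is the long-lived inbred strain, and B6.Cg-Cav1tm1Mls/J (Cav1-null) is a congenic strain that lacks a working Cav1 gene and is also treated as short-lived. Every fetus was labelled female, and the day of the vaginal plug was day 1 of gestation. Dams were approximately 8 weeks old when timed pregnancies were set up for each strain. The labels do not say whether the 3 fetuses of a group came from separate litters, so the p-values below measure the spread between these samples. The Cav1-null strain carries its allele in the germ line, so an effect of it on astrocytes cannot be told apart from one on other tissues.

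Astrocytes descend from radial glia, the progenitors that line the ventricles of the fetal brain and make neurons first and glia later. The switch towards glia in the mouse begins late in gestation and goes on after birth. Transcription factors of the nuclear factor I family and Sox9 make progenitors competent for it, and cytokines that act through the receptor subunit gp130, Janus kinases and Stat3 turn on astrocyte genes such as Gfap and S100b. Fabp7 and Slc1a3 are already used by radial glia, so a read from either does not mark a mature astrocyte. In RNA from a whole brain, fewer cells of a type and less RNA per cell cannot be told apart.

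Each library held between 26363697 and 39759702 reads on genes, with a median of 29700746. Levels are given as CPM, reads of a gene scaled to a common library total after TMM scaling, a scaling by the bulk of the genes. Cav1 ranged from 9.24 to 34.2 CPM in AKR/J, from 10.4 to 39.9 CPM in C57BL/6J and from 0 to 0.509 CPM in Cav1-null libraries, as the labels say. Some libraries stood apart. The 11 erythroid genes of the table summed to 33227 to 197861 CPM in AKR/J on d12 and to no more than 5350 CPM in d12 libraries of the other strains. Scaling factors of the AKR/J libraries of d12 were 0.679, 1.07 and 0.688. The erythroid sum in AKR/J was 2011 to 3070 CPM on d15 and 3460 to 18615 CPM on d17. In d17 libraries of the other strains it was no more than 2923 CPM. The 9 genes of connective tissue and cartilage (mesenchyme) summed to 1305 CPM in AKR/J d15 replicate 2, 5627 in C57BL/6J d15 replicate 1, 1151 in C57BL/6J d17 replicate 1 and 1138 in Cav1-null d12 replicate 3, in each case over 1.5 times their group mates. Muscle genes summed to 89.0 CPM in AKR/J d15 replicate 2 and 65.1 CPM in C57BL/6J d15 replicate 1, against at most 30.4 CPM in any other library. Values without single libraries are given below beside results whose call they change. All 3 AKR/J libraries of d12 held erythroid reads, so no early change of AKR/J can be given without such libraries.

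Promoter sequence is shown for Gfap and Fabp7, so that the letters can be read beside the values. Gfap rose late in every strain. With TMM scaling Fabp7 fell early in AKR/J and rose early in Cav1-null mice, and both calls were lost under some alternatives given below. Each run is the 250 bases before the start of the gene's canonical transcript in GRCm39, read on the gene's own strand. Capitals would mark a match to TTCNNNGAA, the core of a STAT site, or to TTGGCA, a nuclear factor I half-site, on either strand, and neither run holds one.
Gfap (chr11:102788186-102788435, minus strand): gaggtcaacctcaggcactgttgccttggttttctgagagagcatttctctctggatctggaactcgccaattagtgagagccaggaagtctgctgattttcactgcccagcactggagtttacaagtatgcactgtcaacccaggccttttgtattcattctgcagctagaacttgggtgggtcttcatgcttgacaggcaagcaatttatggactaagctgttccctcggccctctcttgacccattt
Fabp7 (chr10:57660706-57660955, plus strand): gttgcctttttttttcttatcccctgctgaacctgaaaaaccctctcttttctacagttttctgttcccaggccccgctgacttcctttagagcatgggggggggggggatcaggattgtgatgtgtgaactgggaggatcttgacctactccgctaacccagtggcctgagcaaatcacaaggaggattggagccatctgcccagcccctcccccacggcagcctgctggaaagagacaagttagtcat
Of the 10 genes, Slc1a3 alone held the STAT letters, as TTCCAAGAA at position -111 from its start, and Aldoc alone held the nuclear factor I letters, as TTGGCA at position -41. Among 21770 windows of the same length before protein-coding genes, 1676 (7.7%) held the first and 2671 (12.3%) held the second. These matches are letters in a window of 250 bases and say nothing of sites farther away.

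Between d15 and d17, Aqp4 and Gfap rose in all 3 strains, by 4.86-fold to 17.0-fold. Sparcl1 rose in AKR/J and Cav1-null mice, Fabp7 rose in AKR/J and C57BL/6J, and Aldh1l1, Slc1a2, Slc1a3, S100b and Aldoc rose in Cav1-null mice. A gene was called differentially expressed (DE) when edgeR's quasi-likelihood test gave a Benjamini-Hochberg adjusted p under 0.05 over all genes tested. In AKR/J, 4 of the 10 genes rose and 0 fell in this late phase, where 11.6% of all tested genes rose and 10.4% fell. In C57BL/6J, 3 rose and 0 fell, against 7.46% and 5.58% of all genes. In Cav1-null mice, 8 rose and 0 fell, against 14.5% and 12.8%. Fitted with all 27 libraries in 1 model, Aqp4 and Gfap alone passed in Cav1-null mice, and the other 6 had edgeR adjusted p from 0.119 to 0.525. The median log2 fold change of the 10 genes was 0.47, 0.65 and 0.85 in the order AKR/J, C57BL/6J and Cav1-null, beside medians of all genes between -0.01 and 0.03.

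Between d12 and d15 the counts were as follows, and they are not a test between strains, which is given further on. In AKR/J, Aqp4, Aldh1l1, Slc1a3, Aldoc and Sparcl1 rose and Fabp7 fell, which is 5 and 1 of 10 genes beside 14.8% and 14% of all genes. In C57BL/6J, Aqp4 alone was DE, and it rose, which is 1 of 10 beside 7.08% of genes that rose and 7.8% that fell. The C57BL/6J count was 4 with DESeq2, the likelihood ratio test, no filter, all 27 libraries in 1 model or the length trend removed, and 0 to 4 without single libraries (4 without d12 replicate 2). In Cav1-null mice, Fabp7 rose while Slc1a2 and Gja1 fell, which is 1 and 2 of 10 genes beside 11.6% and 11.8%. Of these Gja1 alone passed with all 27 libraries in 1 model (edgeR adjusted p = 0.0109, against 0.0923 for Slc1a2 and 0.371 for Fabp7), and without single libraries the count ran from 1 to 8 (8 without d12 replicate 3). The early and late phase of a strain share its d15 libraries, so their fold changes are not independent.

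**Figure D1:**
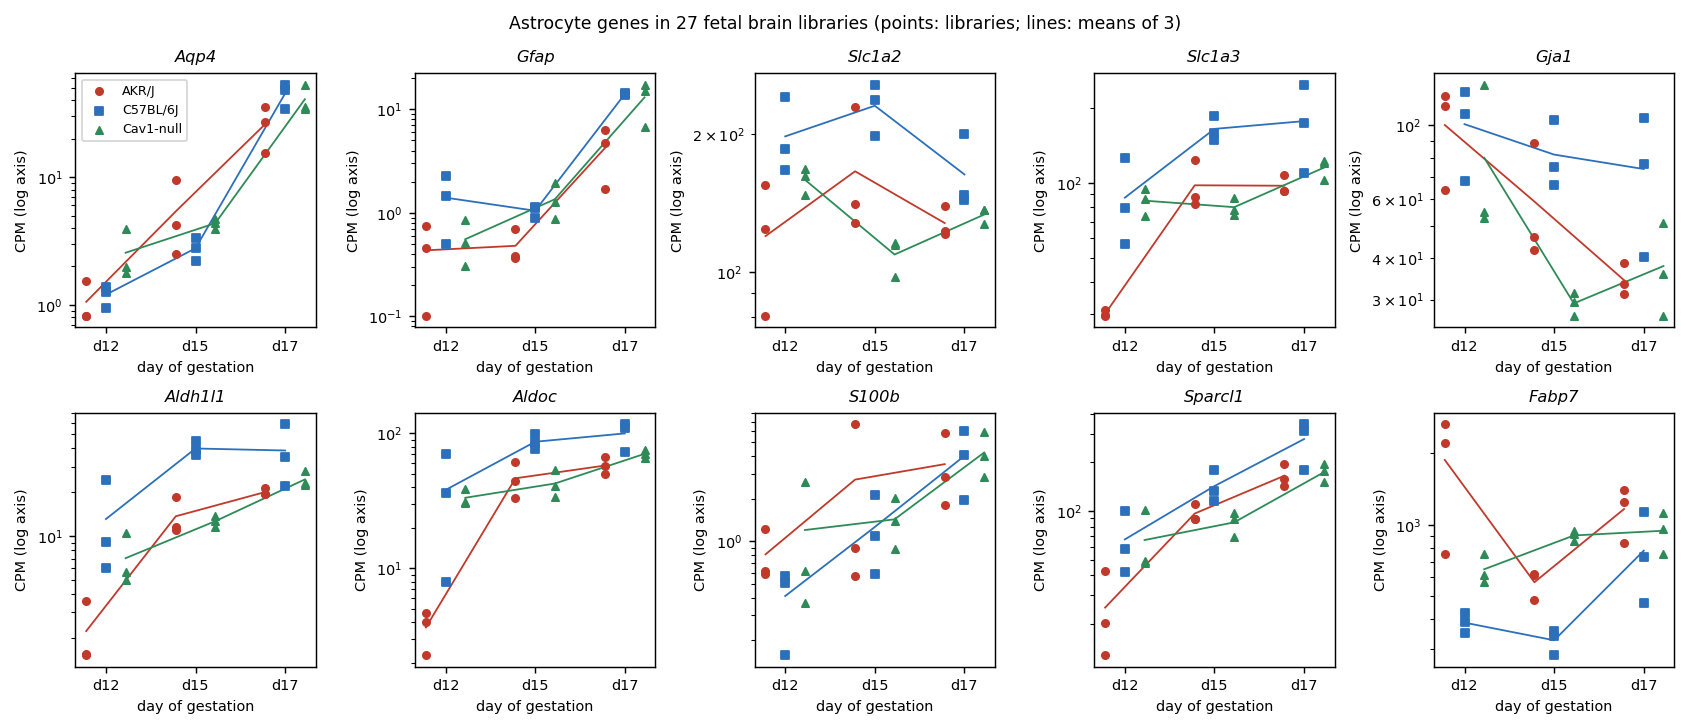
Level of each of the 10 genes in CPM (log axis) on d12, d15 and d17, with 1 point per library and a line through the mean of 3 libraries for each strain. Aqp4 and Gfap reach their highest points on d17, Fabp7 is the most abundant gene in each group, and Gja1 has its highest values on d12.

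**Figure D2:**
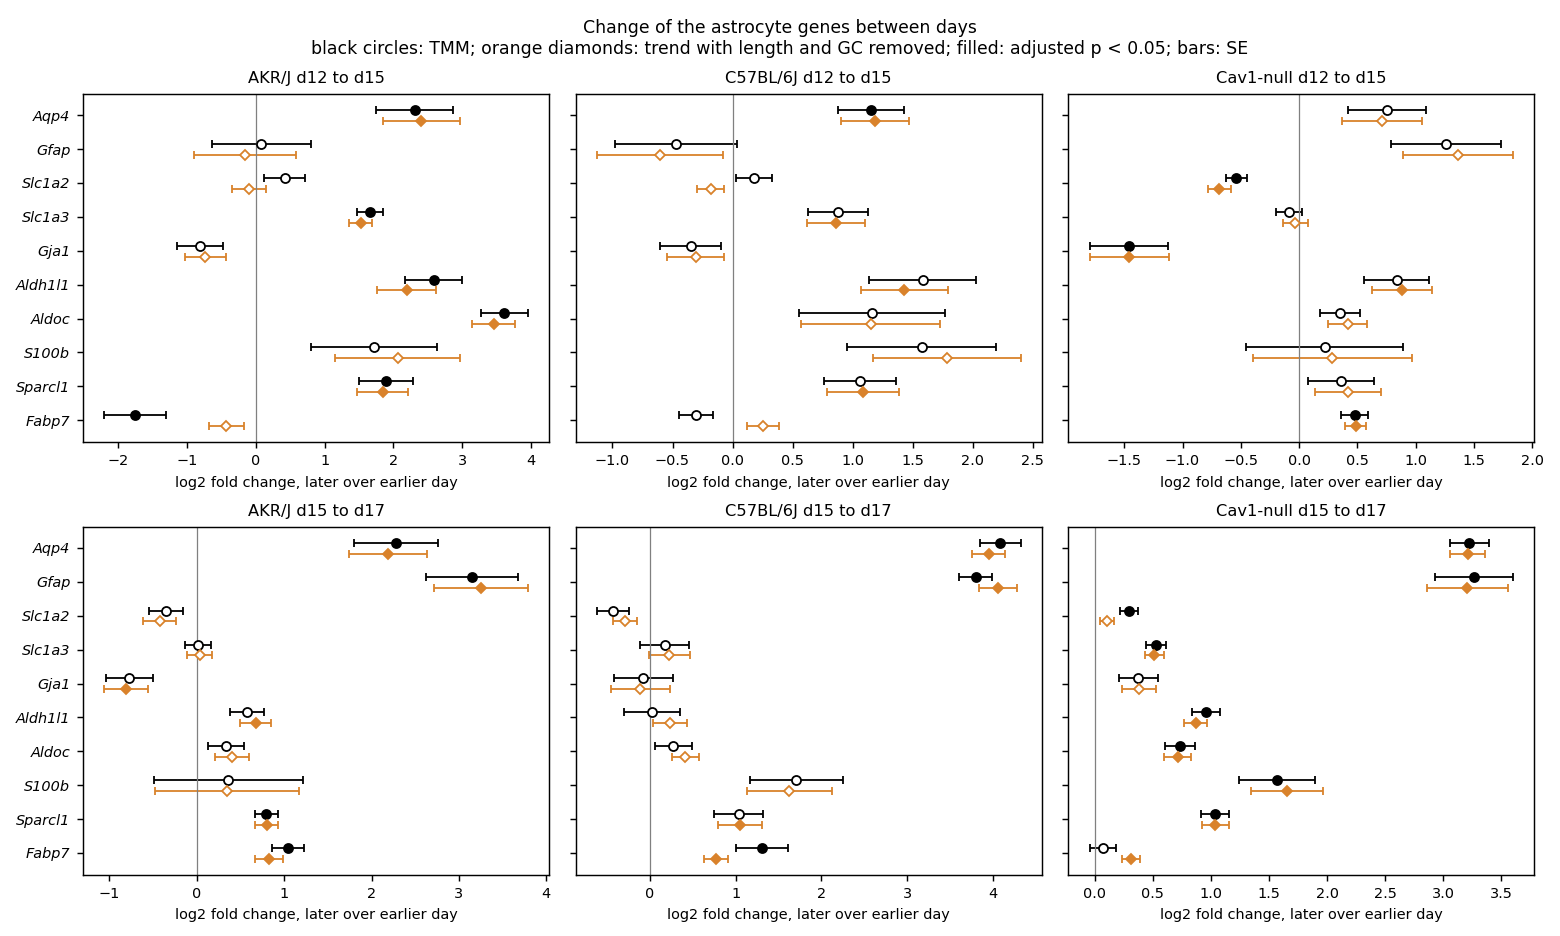
Log2 fold change of each gene, later over earlier day, with its standard error, for the early and the late phase of each strain, for TMM scaling (black circles) and with the trend with transcript length and GC content removed (orange diamonds). Filled symbols have an adjusted p under 0.05. Aqp4 and Gfap lie above 1.5 in each late panel, while Fabp7 lies below 0 in AKR/J and above 0 in Cav1-null mice in the early phase.

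Aqp4 encodes the main water channel of astrocyte end-feet. In AKR/J its level was 0.824, 0.823 and 1.52 CPM in the 3 libraries of d12, 2.48, 9.53 and 4.19 CPM on d15 and 15.6, 27.2 and 35.6 CPM on d17. C57BL/6J libraries held 0.947, 1.39 and 1.27 CPM on d12, 2.19, 2.77 and 3.36 on d15 and 34.5, 52.9 and 48.5 on d17. The levels of d15 and d17 did not overlap in any strain, and in AKR/J and C57BL/6J those of d12 and d15 did not overlap either. Cav1-null libraries held 1.96, 1.77 and 3.94 CPM on d12, 4.39, 4.74 and 3.93 on d15 and 52.6, 34.3 and 35.4 on d17, so the lowest d15 library lay just under the highest d12 library.

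The late-phase log2 fold change of Aqp4 was 2.28 ± 0.48 (SE, 3 libraries per day) in AKR/J, 4.09 ± 0.23 in C57BL/6J and, for Cav1-null, 3.23 ± 0.17, with adjusted p of 0.0127, 0.000784 and 2.31e-07 in edgeR's quasi-likelihood test. In AKR/J the adjusted p was 0.0601 without d17 replicate 2 and 0.0688 without d17 replicate 3, while the rise in the other 2 strains passed under every alternative. The early-phase log2 fold change was 2.31 ± 0.56 in AKR/J (adjusted p = 0.0175), 1.16 ± 0.27 in C57BL/6J (adjusted p = 0.0374) and 0.76 ± 0.33 in Cav1-null mice (adjusted p = 0.138), by the same edgeR test. The early rise of AKR/J missed the threshold without d12 replicate 1 (2.17, adjusted p = 0.0578) or without d15 replicate 2 (1.63, adjusted p = 0.0534), the library with the high mesenchyme sum. That of C57BL/6J missed it without d12 replicate 1 or any of the d15 replicates, with edgeR adjusted p of 0.0929, 0.0877, 0.123 and 0.154. In Cav1-null mice, leaving out d12 replicate 3, which also had a high mesenchyme sum, gave 1.23 and an edgeR adjusted p of 0.000833.

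Reads that span the introns of Aqp4 were counted in the same libraries. Over the 2 Aqp4 junctions in the deposited junction table, the 3 libraries of d15 held 6, 13 and 2 reads in AKR/J, 2, 4 and 2 in C57BL/6J and, for Cav1-null, 5, 4 and 2, and those of d17 held 15, 47 and 38, then 52, 55 and 44, then 63, 43 and 57. Relative to all gene reads, d17 over d15 was 5.10 ± 4.91 in AKR/J, 23.8 ± 10.9 in C57BL/6J and, for Cav1-null, 14.5 ± 6.73 (SD from the spread of the 3 libraries of both days). A 0 in this table can be a missing entry, since the most-read Fabp7 junction is listed at 0 in 4 of 27 libraries beside 2417 to 13268 reads in the others, so zeros of single Aqp4 junctions on d15 carry the same doubt. One of the Aqp4 junctions is also listed under the overlapping gene Gm50048. The table, from which junctions with fewer than 10 reads in all samples were left out, lists no junction of Gfap or S100b. In the gene table Gm50048 did not exceed 0.902 CPM.

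Gfap encodes the intermediate filament by which mature and reactive astrocytes are stained. It was at most 2.25 CPM in each library of d12 and d15. On d17 it was 1.69, 4.70 and 6.34 CPM in AKR/J, 13.8, 14.0 and 14.4 CPM in C57BL/6J and, for Cav1-null, 17.3, 6.74 and 15.1 CPM. In no strain did d15 and d17 overlap, and the highest AKR/J library lay below the lowest library of each of the other strains. The late-phase log2 fold change was 3.15 ± 0.52 in AKR/J, 3.8 ± 0.19 in C57BL/6J and, for Cav1-null, 3.27 ± 0.34 (edgeR adjusted p of 0.00497, 0.000784 and 1.57e-05), and it passed under every alternative in each strain. No early-phase change of Gfap passed the test. The early log2 fold change was 0.08 ± 0.72 in AKR/J, -0.47 ± 0.51 in C57BL/6J and, for Cav1-null, 1.26 ± 0.47, where 2 to 71 reads per library stood behind the d12 values of the 3 strains. Without Cav1-null d12 replicate 3 the last value was 1.73 (edgeR adjusted p = 0.0119).

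Slc1a2 and Slc1a3 encode the glutamate transporters GLT-1 and GLAST, which clear glutamate from synapses. Slc1a2 stayed within a 3.19-fold range over the 27 libraries, from 80.4 to 256 CPM. In AKR/J it was 80.4, 155 and 125 CPM on d12, 141, 128 and 229 on d15 and 121, 123 and 140 on d17, and the days overlapped. C57BL/6J libraries held 186, 241 and 167 CPM on d12, 198, 238 and 256 on d15 and 199.8, 144 and 147 on d17. In both strains no change of Slc1a2 passed the test, with early log2 fold changes of 0.42 ± 0.30 and 0.18 ± 0.15 and late ones of -0.36 ± 0.19 and -0.43 ± 0.19. The late value of C57BL/6J was -0.61 without d17 replicate 1 (edgeR adjusted p = 0.015), the library with the high mesenchyme sum. Cav1-null libraries held 162, 168 and 147 CPM on d12, 97.6, 115 and 116 on d15 and 137, 137 and 128 on d17. In that strain the days did not overlap, with a fall by 0.54 ± 0.09 in the early phase (edgeR adjusted p = 0.00434) and a rise of 0.29 ± 0.08 in the late phase (edgeR adjusted p = 0.0141). The late rise was 0.22 without d15 replicate 1 (edgeR adjusted p = 0.0717) and 0.11 with the length trend removed (edgeR adjusted p = 0.215).

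Slc1a3 in AKR/J was 29.6, 31.0 and 29.5 CPM on d12, 87.9, 82.2 and 124 on d15 and 107, 92.6 and 92.6 on d17. It rose by 1.66 ± 0.19 on the log2 scale in the early phase (edgeR adjusted p = 0.00139). The late log2 fold change was 0.01 ± 0.15 and did not pass the test. C57BL/6J libraries held 79.6, 126 and 56.8 CPM on d12, 149, 159 and 186 on d15 and 247, 110 and 173 on d17. Its d12 and d15 libraries did not overlap, but the early log2 fold change of 0.88 ± 0.25 had an edgeR adjusted p of 0.055, and it was 0.00897 without d12 replicate 2 and 0.0482 without d12 replicate 3. Cav1-null libraries held 74.1, 86.1 and 94.8 CPM on d12, 87.3, 78.0 and 74.7 on d15 and 121, 122 and 103 on d17. There the early log2 fold change was -0.09 ± 0.11 and the late one 0.53 ± 0.09 (edgeR adjusted p = 0.624 and 0.000545).

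Aldh1l1 encodes a folate enzyme and Aldoc encodes aldolase C, the brain form of a glycolytic enzyme, and both are used as pan-astrocyte markers. Aldh1l1 was 1.53, 1.55 and 3.61 CPM in AKR/J on d12 and 11, 11.6 and 18.5 CPM on d15, a rise of 2.58 ± 0.42 on the log2 scale (edgeR adjusted p = 0.00436). On d17 it was 21.6, 19.4 and 19.3 CPM, above each d15 library, with a log2 fold change of 0.57 ± 0.19 and an edgeR adjusted p of 0.0677, which was 0.0056 without d15 replicate 3. It passed with DESeq2 (adjusted p = 0.0278) and edgeR's likelihood ratio test (0.0448). C57BL/6J had 9.06, 24.2 and 6.07 CPM on d12, 35.9, 39.2 and 44.8 on d15 and 58.8, 22.2 and 35.2 on d17. Neither phase passed the test there, with 1.58 ± 0.44 (edgeR adjusted p = 0.0532) and 0.02 ± 0.32, and the early value was 2.33 without d12 replicate 2 (edgeR adjusted p = 0.00599). Cav1-null mice had 5.03, 5.63 and 10.5 CPM on d12, 13.7, 12.7 and 11.5 on d15 and 23.1, 28.0 and 22.4 on d17. The days did not overlap, with 0.84 ± 0.28 in the early phase (edgeR adjusted p = 0.061, and 1.08e-05 without d12 replicate 3) and 0.96 ± 0.12 in the late phase (edgeR adjusted p = 5.74e-05).

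Aldoc had the largest early rise of the 10 genes in AKR/J, though not in the other strains. In AKR/J it went from 4.70, 3.98 and 2.29 CPM on d12 to 44.6, 33.2 and 61.9 CPM on d15, 3.61 ± 0.34 on the log2 scale or 12.2-fold (edgeR adjusted p = 0.000922). It was 49.9, 57 and 66.8 CPM on d17, overlapping d15, and the late change of 0.33 ± 0.20 had an edgeR adjusted p of 0.274 (0.0414 without d15 replicate 3). The d12 libraries of C57BL/6J were spread over 36.4, 70.1 and 7.94 CPM, followed by 76.3, 84.4 and 99.9 on d15 and 111, 72.3 and 117 on d17. Neither phase passed, at 1.16 ± 0.61 and 0.27 ± 0.21 (edgeR adjusted p = 0.213 and 0.4). Cav1-null libraries held 39, 30.8 and 30.4 CPM on d12, 53.6, 40.6 and 33.6 on d15 and 76, 70.2 and 65.7 on d17. The early change of 0.35 ± 0.17 did not pass (edgeR adjusted p = 0.176) and the late rise of 0.74 ± 0.13 did (edgeR adjusted p = 0.00105).

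Sparcl1 encodes a secreted matrix protein, also called hevin, that helps synapses form. It was 20.1, 12.8 and 42.7 CPM in AKR/J on d12, 89.3, 88.5 and 111 on d15 and 158, 143 and 194 on d17, and no day overlapped the next. Both steps passed in this strain, at 1.89 ± 0.39 and 0.79 ± 0.13 (edgeR adjusted p = 0.00997 and 0.00488), but the late one not with all 27 libraries in 1 model (0.78, edgeR adjusted p = 0.183). In C57BL/6J it was 41.8, 99.9 and 58.2 CPM on d12, 133, 115 and 179 on d15 and 345, 179 and 312 on d17. The early and late log2 fold changes of 1.06 ± 0.30 and 1.04 ± 0.29 missed the threshold (edgeR adjusted p = 0.0553 and 0.0536). They passed without d12 replicate 2 (1.44, edgeR adjusted p = 0.0118) and without d17 replicate 2 (1.28, edgeR adjusted p = 0.0109). Cav1-null libraries held 49.2, 47.6 and 101 CPM on d12, 96.4, 89.2 and 69.3 on d15 and 176, 195 and 150.1 on d17. There the early change was 0.36 ± 0.28 (edgeR adjusted p = 0.403), or 0.82 without d12 replicate 3 (edgeR adjusted p = 4.61e-05), and the late rise was 1.03 ± 0.12 (edgeR adjusted p = 3.35e-05).

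S100b, a calcium-binding protein of astrocytes that cartilage and some other tissues make as well, was low in each group. AKR/J libraries held 0.618, 0.592 and 1.22 CPM on d12, 0.566, 6.72 and 0.895 on d15 and 1.82, 2.86 and 5.84 on d17. The highest of the 27 values was that of AKR/J d15 replicate 2, where the cartilage and connective tissue list and the muscle list were also high. The late change in AKR/J was 0.36 ± 0.85 with that library (edgeR adjusted p = 0.797) and 2.28 without it (edgeR adjusted p = 0.0129), and its part in the result was not otherwise tested. C57BL/6J libraries held 0.158, 0.505 and 0.572 CPM on d12, 2.11, 0.590 and 1.09 on d15 and 1.95, 6.01 and 4.06 on d17. The late log2 fold change of 1.71 ± 0.54 missed the threshold (edgeR adjusted p = 0.0754) and was 2.03 without d17 replicate 1 (edgeR adjusted p = 0.0203). Cav1-null libraries held 0.62, 0.367 and 2.62 CPM on d12, 2.02, 1.39 and 0.881 on d15 and 5.88, 2.85 and 3.98 on d17, and the late rise was 1.57 ± 0.32 (edgeR adjusted p = 0.00285). Early changes were 1.72 ± 0.91, 1.57 ± 0.62 and 0.22 ± 0.67 and did not pass in any strain; the last was 1.54 without Cav1-null d12 replicate 3 (edgeR adjusted p = 0.0186). Dip2a, which overlaps S100b on the opposite strand, was 28.3 to 119 CPM, and whether the counting used strand is not given in the sources used here, so reads of the 2 genes cannot be told apart.

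Gja1 encodes connexin 43, the gap junction protein of astrocytes, radial glia, meninges and many connective tissues. It was the one gene of the 10 with its highest group means on d12 in all 3 strains. AKR/J libraries held 114, 64.0 and 123 CPM on d12, 46.3, 88.5 and 42.4 on d15 and 38.5, 31.1 and 33.4 on d17. The early change was -0.81 ± 0.34 (edgeR adjusted p = 0.109), which was -1.20 without d15 replicate 2 (edgeR adjusted p = 0.0307) and -1.06 without d12 replicate 2 (edgeR adjusted p = 0.0427). The late change was -0.77 ± 0.27 (edgeR adjusted p = 0.0704, and 0.031 without d15 replicate 3), and it passed with DESeq2 (adjusted p = 0.00863). C57BL/6J libraries held 68.3, 108 and 126 CPM on d12, 104, 66.3 and 74.9 on d15 and 105, 40.3 and 76.6 on d17, and the days overlapped. Cav1-null libraries held 54.8, 52.6 and 132 CPM on d12, 26.9, 29.4 and 31.4 on d15 and 50.8, 26.8 and 35.8 on d17. The early fall by 1.46 ± 0.33 passed (edgeR adjusted p = 0.0146) but not without any 1 of the d15 replicates, with edgeR adjusted p of 0.0685, 0.0583 and 0.064. Without d12 replicate 3, the library with the high mesenchyme sum, the fall was smaller, at -0.87 (edgeR adjusted p = 3.8e-06). The late change was 0.38 ± 0.17 (edgeR adjusted p = 0.119) and 0.57 without d17 replicate 2 (edgeR adjusted p = 0.00758).

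Across the 27 libraries Gja1 had a Pearson correlation of 0.89 with the summed mesenchyme genes, on the log2(CPM + 1) scale. For S100b it was -0.29. The libraries share strain and day, so these are descriptions. The high Gja1 value within a group fell in the library with the high mesenchyme sum in AKR/J d15 (replicate 2), C57BL/6J d15 and d17 (replicate 1) and Cav1-null d12 (replicate 3). How far the connective tissue list accounts for the level of Gja1 was not tested.

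**Figure D3:**
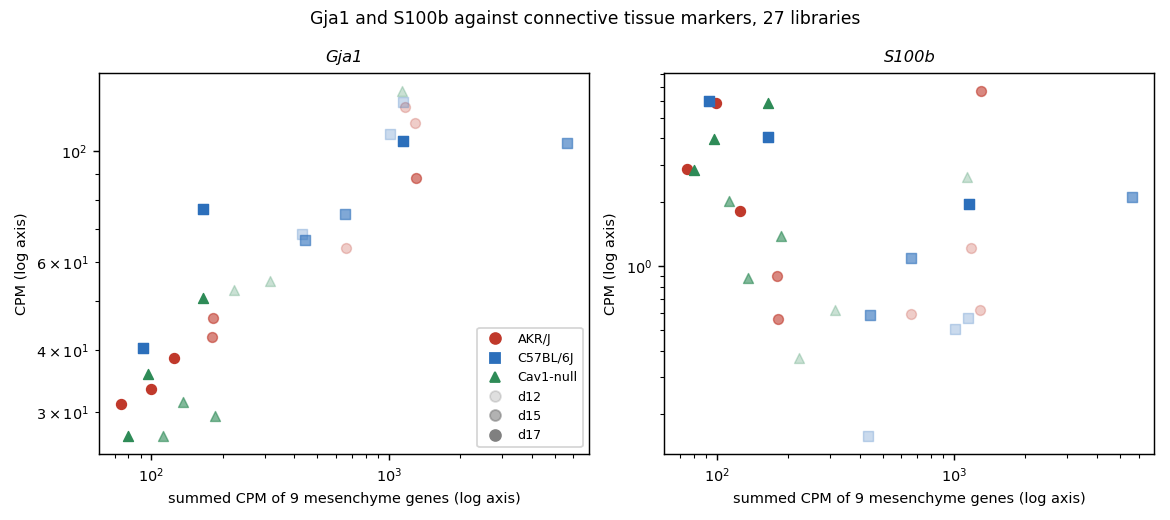
Level of Gja1 and S100b in CPM against the summed CPM of 9 mesenchyme genes (both axes log), with 1 point per library, colour and shape for strain and shade for day. Gja1 rises with the mesenchyme sum over the 27 libraries (r = 0.89), while S100b does not (r = -0.29). The highest S100b value, 6.72 CPM, is in a library whose mesenchyme sum is 1305 CPM.

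Fabp7 encodes the brain fatty acid binding protein of radial glia and immature astrocytes, and it was the most abundant of the 10 genes. AKR/J libraries held 2219.7, 753 and 2662 CPM on d12, 618, 484 and 615 on d15 and 839.8, 1249.7 and 1408 on d17. It fell by 1.76 ± 0.45 in the early phase (edgeR adjusted p = 0.0207) and rose by 1.04 ± 0.19 in the late phase (edgeR adjusted p = 0.00688). C57BL/6J libraries held 424, 348 and 387 CPM on d12, 282, 339 and 356 on d15 and 468, 1136 and 729.8 on d17. The early change was -0.30 ± 0.14 (edgeR adjusted p = 0.166) and the late rise 1.31 ± 0.30 (edgeR adjusted p = 0.0321), which missed the threshold without any 1 of the d15 replicates or without d17 replicate 3 (edgeR adjusted p from 0.0927 to 0.125). Cav1-null libraries held 575, 757 and 616 CPM on d12, 938, 851 and 917 on d15 and 1117, 752 and 964 on d17. There Fabp7 rose in the early phase, by 0.48 ± 0.12 (edgeR adjusted p = 0.0189), with each d15 library above each d12 library. That rise missed the threshold without d12 replicate 1 or any of the d15 replicates, with edgeR adjusted p of 0.0711, 0.0879, 0.0602 and 0.0742. The late change in Cav1-null mice was 0.07 ± 0.12 (edgeR adjusted p = 0.708). The early fall in AKR/J missed the threshold without d12 replicates 1 or 3 or any d15 replicate, with edgeR adjusted p between 0.059 and 0.0794.

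Fabp7 also has the shortest canonical transcript of the 10, 943 bases, the 4th percentile of genes. The libraries differed in their balance of long and short transcripts. For 13321 genes, the log2 level of each gene was centred over the libraries. The balance was the median of the longest genes (at least 5303 bases) minus that of the shortest (at most 2241 bases). It averaged -0.63 in AKR/J on d12 and 0.50 in C57BL/6J on d15 and lay between -0.18 and 0.25 in the other 7 groups. Fabp7 correlated with this balance at r = -0.79 over the 27 libraries, and at r = -0.89 once group means were taken out. Among the other genes Slc1a3 had r = 0.89, Aldh1l1 0.86, Aldoc 0.80, Slc1a2 0.70, with the longest transcript of the 10 (12025 bases), and Sparcl1 0.67. With group means taken out these were 0.55, 0.41, 0.32, 0.67 and -0.01. Aqp4, Gfap, S100b and Gja1 lay between -0.05 and 0.35 over all libraries. These correlations are descriptions over libraries that share strain and day. What set the balance in a library was not tested.

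When each library's trend with transcript length and GC content was removed, an alternative chosen after seeing the data, the early change of Fabp7 in AKR/J went from -1.76 to -0.43 ± 0.25 (edgeR adjusted p = 0.234). Its early rise in Cav1-null mice was 0.48 ± 0.09 (edgeR adjusted p = 0.00724), and its late rise was 0.83 ± 0.16 in AKR/J, 0.77 ± 0.14 in C57BL/6J and, for Cav1-null, 0.31 ± 0.08, all past the threshold (edgeR adjusted p = 0.0076, 0.00731 and 0.00792). The early rises of Aldh1l1, Slc1a3 and Sparcl1 in C57BL/6J, which missed the threshold with TMM alone, passed it here at 1.43, 0.86 and 1.09 (edgeR adjusted p = 0.0349, 0.0456 and 0.043). So did the early rise of Aldh1l1 in Cav1-null mice (0.88, edgeR adjusted p = 0.0387), and in the late phase that of Sparcl1 in C57BL/6J (1.05, edgeR adjusted p = 0.0243) and the changes of Aldh1l1 (0.68) and Gja1 (-0.81) in AKR/J. Late rises of Aqp4 and Gfap remained past the threshold in all 3 strains, at 2.19 to 3.95 for Aqp4 and 3.21 to 4.06 for Gfap.

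**Figure D4:**
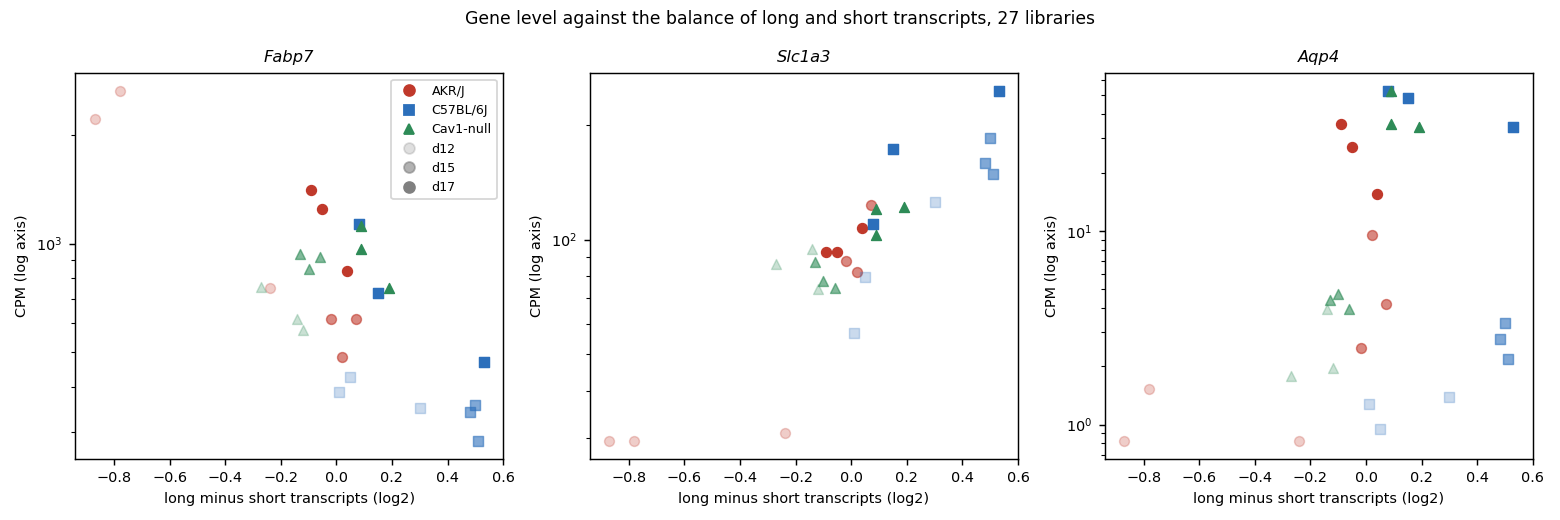
Level of Fabp7, Slc1a3 and Aqp4 in CPM (log axis) against the balance of long and short transcripts (log2), with 1 point per library, colour and shape for strain and shade for day. Fabp7 falls with the balance (r = -0.79) and Slc1a3 rises with it (r = 0.89), while Aqp4 separates by day (r = 0.31).

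Levels were also divided by the merged length of all annotated exons of a gene. That length was 14595 bases for Slc1a3, 12302 for Gja1 and 13994 for Slc1a2, against 4195, 4700 and 12025 in their canonical transcripts. The order below holds for merged exons alone, could differ with canonical lengths and was not computed with those. Per kilobase of merged exon, Fabp7 led in each group, with group means of 255 to 1468 CPM per kb and no overlap with the next gene. On d12 Slc1a2 was second in each strain, at 8.57 to 14.1 CPM per kb, and overlapped the next gene in each. In AKR/J and Cav1-null mice on d17 the order was Sparcl1, Aldoc, Slc1a2 and Slc1a3, at 22.1, 12.4, 9.15 and 6.68 CPM per kb for AKR/J and 23.2, 15.1, 9.55 and 7.89 for Cav1-null mice, with no overlap between these neighbours. C57BL/6J on d17 had Sparcl1 at 37.2, Aldoc at 21.4, Slc1a3 at 12.1 and Slc1a2 at 11.7 CPM per kb, and each of the first 3 overlapped the next. The tenth place on d17 went to Gfap in AKR/J (0.743 CPM per kb) and to S100b in C57BL/6J and Cav1-null mice (2.01 and 2.12), and in each strain these 2 genes overlapped.

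The question the design puts between strains is how short-lived strains differ from C57BL/6J on the same day. On d12, Aldh1l1, Slc1a3 and Aldoc were lower in AKR/J, by 2.41 ± 0.58, 1.39 ± 0.27 and 3.22 ± 0.68 on the log2 scale, and Fabp7 was 5.34-fold higher, at 2.42 ± 0.46 (edgeR adjusted p = 0.0194, 0.0122, 0.0144 and 0.012). That is 1 gene higher and 3 lower of 10, beside 14.5% and 14.1% of all genes. With the length trend removed, Fabp7 was 0.52 ± 0.26 (edgeR adjusted p = 0.186) and Aldh1l1 -1.74 ± 0.53 (edgeR adjusted p = 0.0561), while Slc1a3 and Aldoc still passed. Without C57BL/6J d12 replicate 2, the count was 0, with log2 differences of -1.68, -1.09, -2.50 and 2.30 for Aldh1l1, Slc1a3, Aldoc and Fabp7 and edgeR adjusted p between 0.0622 and 0.0855. Without AKR/J d12 replicate 1, Aldh1l1 had an edgeR adjusted p of 0.0723, and without AKR/J d12 replicate 3, Aldoc had 0.0579 and Sparcl1 passed at -1.88 (edgeR adjusted p = 0.0452). Without AKR/J d12 replicate 2, Slc1a2 passed at -0.81 (edgeR adjusted p = 0.0379). The AKR/J d12 libraries are those with the erythroid reads, and their neuron genes summed to 2077 to 2702 CPM against 3825 CPM or more in each other library. The part of these in the strain difference was not tested, and a lag in stage cannot be told apart from it.

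On d15 the comparison of AKR/J with C57BL/6J had 1 gene higher and 5 lower of 10, beside 18.8% and 22.3% of all genes. Fabp7 was higher by 0.88 ± 0.12 (edgeR adjusted p = 0.0012). Lower were Aldh1l1 (-1.48 ± 0.20), Gfap (-1.05 ± 0.35), Aldoc (-0.84 ± 0.20), Slc1a3 (-0.69 ± 0.15) and Sparcl1 (-0.50 ± 0.16), with edgeR adjusted p between 0.00107 and 0.0472. Gfap rested on 12 to 41 reads per library, and missed the threshold without any 1 of the C57BL/6J replicates or without AKR/J replicates 2 or 3 (edgeR adjusted p from 0.0807 to 0.133). Aldoc missed it without C57BL/6J replicate 3 or AKR/J replicate 1 (edgeR adjusted p = 0.0519 and 0.0679), Slc1a3 without AKR/J replicate 1 (edgeR adjusted p = 0.0572), and Sparcl1 without C57BL/6J replicates 1 or 3 or AKR/J replicates 1 or 2 (edgeR adjusted p from 0.0698 to 0.155). With the length trend removed, the difference of Fabp7 was -0.08 ± 0.13 and Aldh1l1, Slc1a3 and Sparcl1 stayed lower, at -1.01, -0.66 and -0.55. Over all genes that fit had 2501 higher and 2138 lower, against 3696 and 4393 with TMM alone. In the TMM fit 8 of 9 endothelial and 4 of 12 neuron genes were lower in AKR/J and none of either was higher. Of 10 oligodendrocyte genes 5 were lower and 1 higher, and of 11 erythroid genes 8 were higher and 1 lower. Radial glia genes were higher for 3 and lower for 3 of 12, gliogenic factors for 1 and 5 of 12, and microglia genes for 3 and 2 of 8. The part of these lists in the differences was not tested. With all 27 libraries in 1 model, Aldh1l1 and Slc1a3 alone passed. Aqp4 was higher without AKR/J d15 replicate 1 (1.36), and Gja1 and Slc1a2 were lower without AKR/J d15 replicates 2 and 3 (-0.82 and -0.73), with edgeR adjusted p of 0.0406, 0.0145 and 0.00365. On d17 none of the 10 passed, beside 0.742% of all genes. At an unadjusted edgeR p under 0.05 there were 7, beside 4275 of 20207 genes. DESeq2 called 4, beside 1327 of all genes. The largest d17 differences were those of Gfap (-1.74 ± 0.40, edgeR adjusted p = 0.112), with no overlap of the libraries, and Gja1 (-1.12 ± 0.31, edgeR adjusted p = 0.152). Without C57BL/6J d17 replicate 2, 7 genes passed, among them Gfap at -1.73 (edgeR adjusted p = 0.0162) and Gja1 at -1.40 (edgeR adjusted p = 0.00259).

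Cav1-null mice differed from C57BL/6J in these genes on d15. Of the 10, 2 were higher and 6 lower, beside 26.8% and 31.8% of all genes, so a large share of all genes differed on this day too. Lower were Aldh1l1 (-1.62 ± 0.11), Gja1 (-1.45 ± 0.15), Slc1a2 (-1.04 ± 0.09), Slc1a3 (-1.0 ± 0.09), Aldoc (-0.99 ± 0.15) and Sparcl1 (-0.70 ± 0.16), with edgeR adjusted p of at most 0.00333. Higher were Fabp7 (1.51 ± 0.08, edgeR adjusted p = 1.58e-07) and Aqp4 (0.69 ± 0.21, edgeR adjusted p = 0.0157). Aqp4 missed the threshold without Cav1-null d15 replicate 2 (0.64, edgeR adjusted p = 0.0543). With the length trend removed, Fabp7 was 0.35 ± 0.08 and still passed (edgeR adjusted p = 0.0045), Aqp4 was 0.44 and did not (edgeR adjusted p = 0.119), and the 6 lower genes stayed lower at -1.61 to -0.66. Over all genes that fit had 5137 higher and 4252 lower, against 5310 and 6311 with TMM alone. With all 27 libraries in 1 model, Aqp4, Aldoc and Sparcl1 missed the threshold (edgeR adjusted p = 0.201, 0.0561 and 0.109). Gfap was 0.41 ± 0.33 with TMM alone and passed at 0.98 with the length trend removed (edgeR adjusted p = 0.0386). Mesenchyme genes summed to 443 to 5627 CPM in C57BL/6J on d15 and to 112 to 186 CPM in Cav1-null mice, and endothelial genes were lower in Cav1-null mice for 8 of 9. Other lists moved as well, with 11 of 12 radial glia genes lower and 1 higher, 8 of 10 oligodendrocyte genes lower and 2 higher, 7 of 12 neuron genes lower and 3 higher, 9 of 12 gliogenic factors lower, and 7 of 10 gp130 pathway genes lower and 1 higher. The part of these in the differences of the 10 genes was not tested.

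On d12 none of the 10 genes passed between Cav1-null and C57BL/6J mice, beside 0% of 19475 genes. Of the 10, 2 had an unadjusted edgeR p under 0.05, Fabp7 (0.78 ± 0.17) and Aqp4 (1.12 ± 0.38), beside 4309 of 19475 genes. DESeq2 called 1 of the 10 and 2027 of all genes. On d17 none passed, beside 0.0491% of all genes. There were 4 at an unadjusted edgeR p under 0.05, beside 1538 of 20358 genes. DESeq2 called 0, beside 48 of all genes. Aqp4 and Gfap differed by -0.15 ± 0.21 and -0.11 ± 0.30 on d17. Without C57BL/6J d17 replicate 2, 5 genes were lower in Cav1-null mice, Gja1 (-1.28), Aldh1l1 (-0.95), Sparcl1 (-0.93), Slc1a3 (-0.88) and Aldoc (-0.71). Comparisons of AKR/J and of Cav1-null mice with C57BL/6J share the C57BL/6J libraries, so they are not independent.

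**Figure D5:**
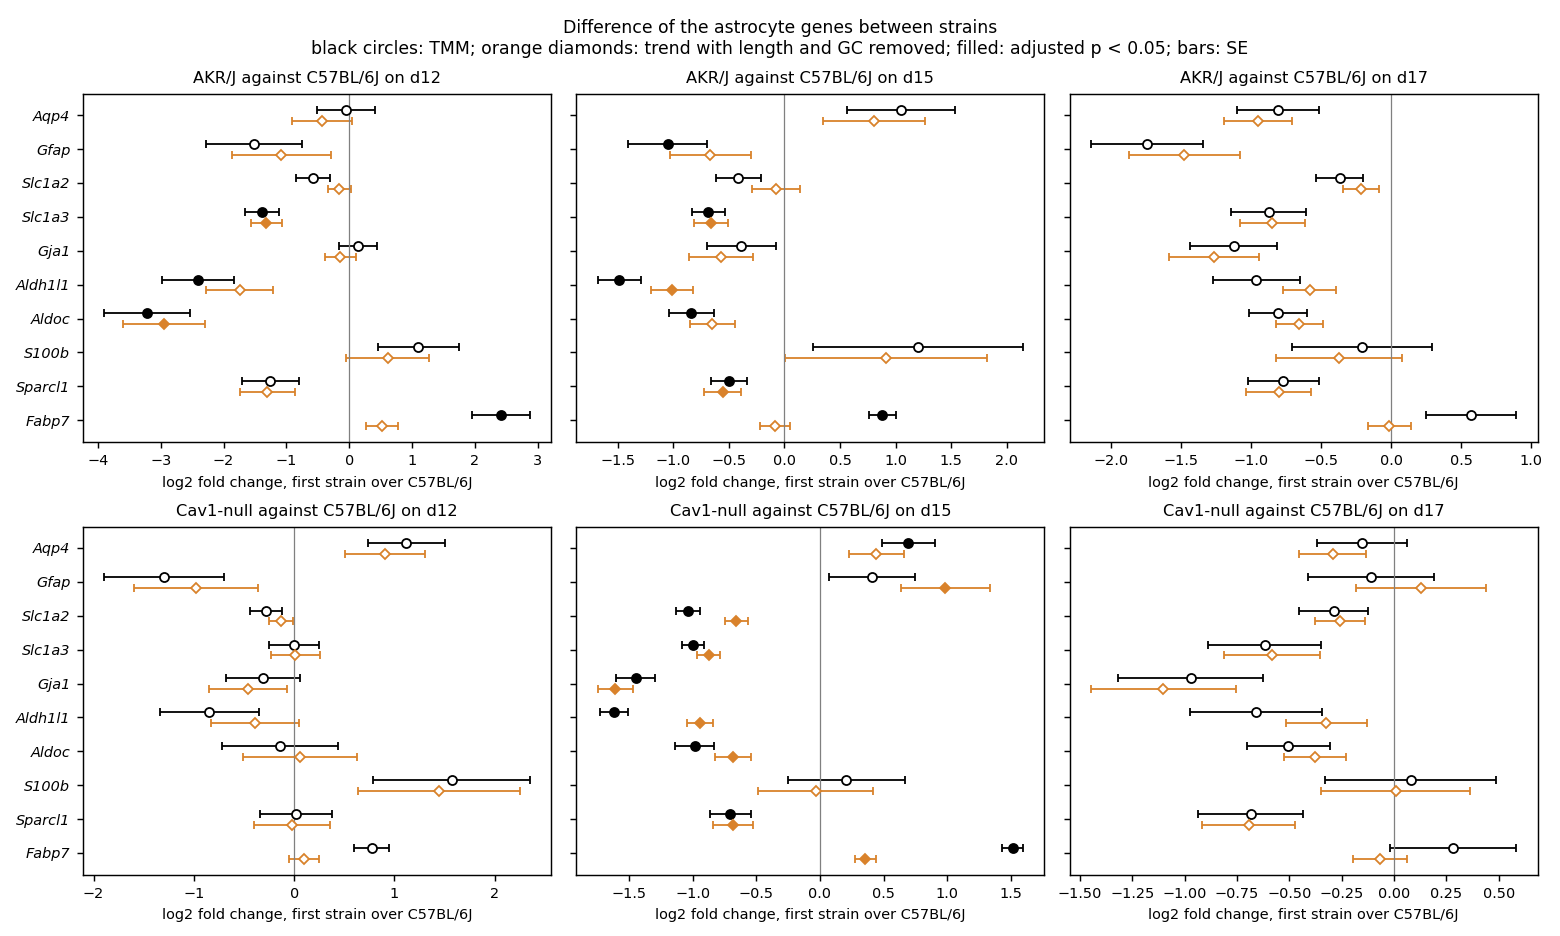
Log2 difference of each gene between a strain and C57BL/6J on the same day, with its standard error, for TMM scaling (black circles) and with the trend with transcript length and GC content removed (orange diamonds). Filled symbols have an adjusted p under 0.05. Fabp7 is 2.42 with TMM and 0.52 with the trend removed for AKR/J on d12, and Aldh1l1, Slc1a2, Slc1a3, Gja1, Aldoc and Sparcl1 are filled below 0 in both fits for Cav1-null mice on d15.

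Whether a change over time differed between strains was tested by the interaction of strain and day. Between AKR/J and C57BL/6J, none of the 10 genes passed in the early phase (0.0711% of all genes did) or in the late phase (0.00468%). At an unadjusted edgeR p under 0.05 there were 3 and 1, beside 3432 of 21090 and 1617 of 21373 genes. DESeq2 called 2 and 0, beside 1009 and 45 of all genes. With all 27 libraries in 1 model, the early change differed for Aldoc (2.47) and Fabp7 (-1.47), with edgeR adjusted p of 0.0185 and 0.0484. The late rise of Aqp4 was smaller in AKR/J by 1.78 ± 0.60 on the log2 scale, with an edgeR adjusted p of 0.563. In the early phase Aldoc passed without C57BL/6J d12 replicate 3 (2.89) and Fabp7 without AKR/J d12 replicate 2 (-1.91). Between Cav1-null and C57BL/6J mice, none passed in the early phase (0.00472% of all genes) or the late phase (0.252%). There were 5 and 4 at an unadjusted edgeR p under 0.05, beside 3181 of 21191 and 4683 of 21431 genes. DESeq2 called 2 and 2, beside 498 and 1436 of all genes. Without C57BL/6J d12 replicate 2, 4 genes passed in the early phase: Aldh1l1 (-1.52), Slc1a2 (-0.89), Slc1a3 (-1.32) and Fabp7 (0.83). Without C57BL/6J d17 replicate 1, 5 passed in the late phase: Aqp4 (-0.97), Aldh1l1 (1.43), Slc1a2 (0.96), Slc1a3 (0.74) and Fabp7 (-1.45).

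AKR/J and Cav1-null mice were compared in the same way, in a pair of comparisons added after seeing the data. The early change differed for 4 of the 10 genes, beside 14.7% of all genes. It was larger in AKR/J for Aldoc (3.23 ± 0.39, edgeR adjusted p = 0.00134), Slc1a3 (1.72 ± 0.22, edgeR adjusted p = 0.00209) and Aldh1l1 (1.72 ± 0.52, edgeR adjusted p = 0.0424), and lower for Fabp7 (-2.26 ± 0.48, edgeR adjusted p = 0.0107). Aldh1l1 missed the threshold without Cav1-null d12 replicates 2 or 3, any of the Cav1-null d15 replicates, AKR/J d12 replicate 1 or AKR/J d15 replicates 1 or 3, with edgeR adjusted p from 0.0512 to 0.115. With the length trend removed, the difference of Fabp7 was -1.03 ± 0.28 (edgeR adjusted p = 0.0324) and that of Aldh1l1 1.26 (edgeR adjusted p = 0.143). Erythroid genes were lower in this comparison for 10 of 11 tested and placental and yolk sac genes for 6 of 8, and neuron genes were higher for 5 of 12 and endothelial genes for 3 of 9. The comparison rests on the AKR/J d12 libraries that stood apart, and the part of these lists was not tested. Slc1a2 passed without AKR/J d12 replicate 2 (1.21) and Sparcl1 without AKR/J d12 replicate 3 (2.17). In the late phase none passed, beside 2.13% of all genes. There were 4 at an unadjusted edgeR p under 0.05, beside 4505 of 21663 genes. DESeq2 called 2, beside 1793 of all genes. Fabp7 (0.96 ± 0.24) passed without AKR/J d15 replicate 1, AKR/J d17 replicate 1 or Cav1-null d17 replicate 1 (1.02, 1.15 and 1.10), and Slc1a2 (-0.66 ± 0.23) without AKR/J d15 replicate 2 (-0.81).

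A wider list of 40 genes of astrocytes and their precursors gave the other genes of the lineage. In the late phase, 22 of 38 tested rose and 2 fell in AKR/J, 18 rose and 1 fell of 39 in C57BL/6J, and 30 rose and 2 fell of 39 in Cav1-null mice, with median log2 fold changes of 0.69, 0.73 and 0.82. The shares of all genes that rose and fell were 11.6% and 10.4%, 7.46% and 5.58%, and 14.5% and 12.8%. Agt, which encodes angiotensinogen, rose most, from 0.208 to 4.13 CPM in C57BL/6J and from 0.135 to 2.39 CPM in Cav1-null mice (log2 fold change 4.35 and 4.12), and was too low to test in AKR/J. Dio2, the deiodinase that activates thyroid hormone, rose by 2.67, 2.09 and 1.71 in the order AKR/J, C57BL/6J and Cav1-null, and Itih3, an inhibitor heavy chain of the matrix, by 2.36, 1.63 and 1.88. Fgfr3, a growth factor receptor of progenitors and astrocytes, fell by 1.02, 0.80 and 0.34. Slc15a2, a peptide transporter, changed by 0.11 (not DE), 0.93 and -0.68, and Tnc, the matrix protein tenascin C, by 0.70, -0.17 (not DE) and 0.37. In the early phase of the same list 14 rose and 3 fell in AKR/J, 9 rose and 1 fell in C57BL/6J, and 14 rose and 5 fell in Cav1-null mice, of 38 each, beside 14.8% and 14%, 7.08% and 7.8%, and 11.6% and 11.8% of all genes. Between strains on d15, 2 were higher and 19 lower in AKR/J than in C57BL/6J, while in the Cav1-null strain 8 of the 38 were higher and 23 were lower. Of all genes, 18.8% were higher and 22.3% lower in AKR/J on that day, and 26.8% and 31.8% in the Cav1-null strain.

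Regulators of the switch to glia were read from lists of their own. Of 12 transcription factors and related genes, none rose in the late phase and 5, 5 and 3 fell in the order AKR/J, C57BL/6J, Cav1-null, beside 10.4%, 5.58% and 12.8% of all genes that fell. Nfia, a factor of gliogenic competence, fell in all 3 strains, by 0.48, 0.96 and 0.59, and so did the Notch target Hes1, by 1.29, 0.96 and 0.68. Nfib fell in C57BL/6J (-1.03) and Cav1-null mice (-0.69) and was -0.18 in AKR/J, which was not DE. Sox9 fell in AKR/J (-0.93) and C57BL/6J (-1.37) and was -0.15 in Cav1-null mice, not DE. In the early phase Sox9 had fallen in AKR/J (-0.85) and Cav1-null mice (-1.155) and was -0.13 in C57BL/6J, not DE. Early rises were DE for Nfia in AKR/J (1.07) and for Nfib in AKR/J (1.73) and Cav1-null mice (0.64). The other early changes of Nfia and Nfib were not DE. Nfix rose in the early phase of each strain, by 2.44, 2.03 and 1.19, and was not DE in the late phase. In the early phase 3, 1 and 2 of the 12 rose, beside 14.8%, 7.08% and 11.6% of all genes, and 4, 2 and 5 fell, beside 14%, 7.8% and 11.8%. Of 12 genes of the gp130 pathway, 10 were tested in the late phase, of which 1 rose and 1 fell in AKR/J, none was DE in C57BL/6J, and 3 rose and 1 fell in Cav1-null mice, where 14.5% of all genes rose and 12.8% fell. Stat3 itself was -0.43, -0.66 and 0.06 in the late phase, and it was DE in neither phase of any strain (edgeR adjusted p from 0.0789 to 0.768).

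Markers of other cell types moved over the same days. Of 12 radial glia and progenitor genes, 11, 8 and 10 fell in the late phase, again in the order AKR/J, C57BL/6J, Cav1-null and beside the same shares of all genes, and 1 rose in the last. Their sum fell from 1574 to 1899 CPM on d15 to 672 to 901 CPM on d17 in AKR/J, from 1888 to 2131 to 586 to 988 in C57BL/6J and from 1008 to 1026 to 597 to 607 in Cav1-null mice. Neuron genes rose for 3, 3 and 7 of 12 and oligodendrocyte genes for 3, 1 and 9 of 10 and none of either list fell. Of all genes 11.6%, 7.46% and 14.5% rose in the late phase, which holds for the other late counts too. The most abundant genes of the lists were Vim (radial glia), Dcx (neurons), Pdgfra (oligodendrocytes), Ttr (choroid plexus), Kdr (endothelium), Col1a1 (mesenchyme), Actn2 (muscle), Hbb-y (erythroid) and Csf1r (microglia). Over the 27 libraries the sums ranged from 79.0 to 394 CPM for oligodendrocytes, 254 to 786 for choroid plexus and ependyma, 73.3 to 329.7 for endothelium, 36.2 to 88.6 for microglia and 64.8 to 2341 for placenta and yolk sac, a list that shares Ttr with the choroid plexus list. Ttr was its most abundant gene by the mean over the 27 libraries, but in AKR/J on d12 Ttr was 14.4 to 175 CPM while the sum was 64.8 to 2341. Of the 9 choroid plexus and ependyma genes, 1, 0 and 0 rose and 1, 1 and 3 fell. Endothelial genes fell for 4 of 9 in AKR/J and rose for 1 in Cav1-null mice. Microglia genes rose for 2, 1 and 0 of 8. Of the mesenchyme list, 2, 1 and 3 genes fell and 1 rose, in Cav1-null mice. Of 6 muscle genes tested, 1 rose and 1 fell, both in Cav1-null mice. Erythroid genes rose for 5, 6 and 0 and fell for 3, 3 and 6. Of the placental and yolk sac list, 1 gene rose in AKR/J and 1 fell in Cav1-null mice. In the early phase 8, 4 and 5 of the 12 neuron genes rose and none fell, and 7, 7 and 11 of the 12 radial glia genes fell and none rose, where 14.8%, 7.08% and 11.6% of all genes rose and 14%, 7.8% and 11.8% fell. Over the 27 libraries, which share strain and day, Aqp4 correlated with the radial glia sum at -0.92, and Aldoc, Slc1a3, Aldh1l1 and Sparcl1 with the neuron sum at 0.95, 0.93, 0.91 and 0.86. The part of these cell types in the levels of the 10 genes was not tested.

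The genes most like each of the 10 across the 27 libraries were taken as the 2 with the highest Pearson correlation of log2(CPM + 1) among 18383 genes with at least 1 CPM in at least 3 libraries. They were Mfap3l and Shfl for Aqp4 (both 0.96), Pla2g3 and Ptk2b for Gfap (0.95 and 0.93), Il33 and Msc for S100b (both 0.88), and Foxc1 and Mrc1 for Gja1 (both 0.95). For Slc1a3 they were Lingo1 and Vat1l (0.98 and 0.97), for Aldh1l1 Elfn2 and Dnm1 (both 0.98), for Aldoc Cacng2 and Chd5 (both 0.98), for Slc1a2 Sema6a and Trp53bp1 (0.94 and 0.92), and for Sparcl1 AW551984 and Diras2 (0.96 and 0.95). Fabp7 had Vps29 and Nt5c3 (both 0.98). Foxc1 is a transcription factor of the meninges, and Mrc1 marks border macrophages. Among the 10 genes themselves, Aqp4 and Gfap correlated at 0.89, Aldh1l1 and Slc1a3 at 0.95, Slc1a3 and Aldoc at 0.94 and Slc1a2 and Fabp7 at -0.77. The points share strain, day and the balance of long and short transcripts.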

How the data were processed

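RNA from 27 fetal brains was sequenced after poly-A selection and random hexamer priming. The authors used FastQC for read quality, cutadapt for adaptors, fastp for trimming (Phred 30) and STAR for mapping to GRCm39, then deposited raw read counts per gene and per splice junction, and used edgeR for their own tests. The counting tool, its strand setting and its treatment of multi-mapped reads are not given in the sources used here.

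Here, counts were filtered with filterByExpr, scaled by TMM and tested in edgeR 4.0.16 (R 4.3.3) with the quasi-likelihood test, Benjamini-Hochberg adjusted over all genes of a comparison (threshold 0.05), using the groups compared. SE is the log2 fold change over the root of F. The 16 planned comparisons are 6 phases, 6 strain differences and 4 interactions, and 2 were added after seeing the data. Alternatives were DESeq2 1.42.0, a likelihood ratio test, other scalings, no filter, all libraries in 1 model, a replicate block, leaving out each library, and, added after seeing the data, removal of the trend with length and GC content by splines (5 degrees of freedom). Fits were also run on simulated counts. These had no length trend and no libraries that stood apart, so they do not bear on those features. Totals were 26363697 to 39759702 reads per library. In AKR/J on d12, Gfap, S100b and Aqp4 rested on 2 to 30 reads per library, which limits their precision.

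The 10 genes and the 13 other gene lists were chosen with earlier results of these data known. The text names the 10 genes in every comparison; of the wider astrocyte list, the 3 highest and 3 lowest by mean late log2 fold change over the strains among genes called in at least 2; of the regulator lists, genes called the same way late in all 3 strains, and Stat3, Nfia, Nfib, Nfix and Sox9; the top gene of each marker list; and the 2 genes most like each member.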

Additional observations from a re-analysis of the deposited data

Results flagged for a closer look

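The early change, d12 to d15, differed between AKR/J and Cav1-null mice for 4 of the 10 genes, by the interaction of strain and day in a comparison added after seeing the data. On the log2 scale, AKR/J minus Cav1-null, the difference was 1.72 for Aldh1l1, 1.72 for Slc1a3, 3.23 for Aldoc and -2.26 for Fabp7, with adjusted p of 0.0424, 0.00209, 0.00134 and 0.0107 in edgeR's quasi-likelihood test. Of all genes, 14.7% differed in this comparison. It rests on the AKR/J d12 libraries that stood apart. In it 10 of 11 erythroid and 6 of 8 placental and yolk sac genes were lower, and 5 of 12 neuron and 3 of 9 endothelial genes higher, and the part of these was not tested. For Fabp7 the strains moved in opposite directions, with each AKR/J library of d15 below each of d12 (-1.76) and each Cav1-null library of d15 above each of d12 (0.48). With the length trend removed, the early change of Fabp7 in AKR/J was -0.43 (edgeR adjusted p = 0.234) and the difference between the strains -1.03 (edgeR adjusted p = 0.0324). The fall in AKR/J also missed the threshold without d12 replicates 1 or 3 or any d15 replicate. The rise in Cav1-null mice missed it with all 27 libraries in 1 model (edgeR adjusted p = 0.371) and without d12 replicate 1 or any d15 replicate (edgeR adjusted p from 0.0602 to 0.0879). The difference of Aldh1l1 was 1.26 with the trend removed (edgeR adjusted p = 0.143) and 1.67 with RLE size factors (edgeR adjusted p = 0.0528), and it missed the threshold in 8 of 12 fits without a single library.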

How the results depend on the processing

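For single genes, 2698 of 3054 settings kept the direction and the side of the threshold, 84 (52 with a library left out) no longer passed, 155 (53 with a library left out) newly passed and 117 changed sign, 116 of them past the threshold in neither fit. The exception was Fabp7 on d15 between AKR/J and C57BL/6J with the length trend removed. Late rises of Gfap passed in each strain under all 15 alternatives. Low counts limit Gfap and S100b most. Scaling by library sizes alone shifted the median over all genes from 0.02 to 0.46 for the early AKR/J phase and from 0.02 to -0.38 between AKR/J and C57BL/6J on d12 (log2), with 3588 genes higher and 1214 lower against 2958 and 2800, and 1362 and 3153 against 2797 and 2732. On d15 it gave 5542 and 3281 against 3696 and 4393 for AKR/J, and 7192 and 4952 against 5310 and 6311 for Cav1-null mice. In the late phase of C57BL/6J it gave 2099 and 968 against 1484 and 1110, in the early change of AKR/J against Cav1-null 2882 and 852 against 1712 and 1479, and in that of AKR/J against C57BL/6J 89 and 18 against 1 and 14, with medians of 0.17, 0.52 and 0.58. The cause of the changes below was not tested. The junction alternative was run for Aqp4 alone, and on its most-read junction d17 over d15 was 5.81 (AKR/J), 43.9 (C57BL/6J) and 21.5 (Cav1-null).

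The counts of the 10 genes called that follow are from fits that kept all libraries. They moved by at most 1.5 times in the late AKR/J phase (4), with 6 by DESeq2 and the likelihood ratio test. The same held for the early change of AKR/J against Cav1-null mice (4). It had 5 by DESeq2 and 6 by the likelihood ratio test, no filter and all 27 libraries in 1 model. Counts that moved by over 1.5 times were as follows. In the early phase of C57BL/6J (1 with TMM), DESeq2, the likelihood ratio test, no filter, all 27 libraries in 1 model and the removed length trend each gave 4, and library sizes alone gave 3. In its late phase (3), DESeq2, the likelihood ratio test and no filter each gave 5. The model of all 27 libraries gave 1 (early) and 2 (late) for Cav1-null mice (3 and 8). Between AKR/J and C57BL/6J it gave 7 on d12 (4), 2 on d15 (6) and 1 on d17 (0), and the removed trend gave 2 on d12 and 3 on d15. On d17, DESeq2, the likelihood ratio test and no filter each gave 4. Between Cav1-null and C57BL/6J mice, these same 3 alternatives gave 1 on d12 (0), and the model of all libraries gave 5 on d15 (8). For the early change of AKR/J against C57BL/6J (0), DESeq2 and the model of all libraries gave 2, and the likelihood ratio test and no filter gave 1. For that of Cav1-null mice (0), DESeq2 gave 2 and the likelihood ratio test 1, and for their late change (0) DESeq2, the likelihood ratio test and no filter gave 2. For the late change of AKR/J against Cav1-null mice (0), DESeq2 and the likelihood ratio test gave 2, library sizes alone 1 and no filter 5.

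Replicate numbers did not pair the samples. Of 36 pairs of same-numbered samples, 8 had deviations correlated over 0.1, in 0 of 12 comparisons did every pair, and the values ran from -0.47 to 0.40. With the number as a replicate block, the count was 0 in the early phase of C57BL/6J and 4 between AKR/J and C57BL/6J on d17. The block also lost the calls of early Fabp7 for Cav1-null mice (edgeR adjusted p = 0.0549) and of Gfap between AKR/J and C57BL/6J on d15 (edgeR adjusted p = 0.0767), and made those of Sparcl1 late in C57BL/6J and between AKR/J and C57BL/6J on d12. The block turned the sign of Aldh1l1 in the late phase of C57BL/6J (-0.09), of Slc1a3 (0.06) and Aldoc (0.28) between Cav1-null and C57BL/6J mice on d12, and of S100b in the early change of AKR/J against C57BL/6J (-0.50).

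With a library left out, counts ran from 4 to 7 (early) and 3 to 7 (late) for AKR/J, 0 to 4 and 2 to 5 for C57BL/6J and 1 to 8 and 7 to 9 for Cav1-null mice. Against C57BL/6J on d12, d15 and d17 they ran from 0 to 5, 3 to 6 and 0 to 7 for AKR/J and from 0 to 0, 7 to 8 and 0 to 5 for Cav1-null mice. For early and late changes between strains they ran from 0 to 1 and 0 to 0 for AKR/J against C57BL/6J, 0 to 4 and 0 to 5 for Cav1-null against C57BL/6J, and 3 to 5 and 0 to 1 for AKR/J against Cav1-null. Counts moved most without AKR/J d15 replicate 3 (7 in the late phase), C57BL/6J d12 replicate 2 (4 in the early phase and 0 against AKR/J), C57BL/6J d17 replicate 1 (5 late), C57BL/6J d17 replicate 2 (7 and 5 against AKR/J and Cav1-null mice), C57BL/6J d15 replicate 3 (3 against AKR/J) and Cav1-null d12 replicate 3 (8 in the early phase). Without any 1 of the d15 libraries the early phase gave 0 for C57BL/6J and 1 for Cav1-null mice, and without C57BL/6J d12 replicate 1 or 3 it gave 0 and 2 in C57BL/6J. The early change of Cav1-null against C57BL/6J gave 4 without C57BL/6J d12 replicate 2, and the late change 5 without C57BL/6J d17 replicate 1. The early change of AKR/J against C57BL/6J gave 1 without C57BL/6J d12 replicate 3 or AKR/J d12 replicate 2. The late change of AKR/J against Cav1-null gave 1 without Cav1-null d17 replicate 1, AKR/J d15 replicate 1 or 2, or AKR/J d17 replicate 1.

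With the length trend removed, signs turned in the early phase for Gfap (-0.16) and Slc1a2 (-0.10) in AKR/J and Slc1a2 (-0.18) and Fabp7 (0.25) in C57BL/6J. Between AKR/J and C57BL/6J they turned for Gja1 on d12 (-0.14) and Fabp7 on d15 (-0.08) and d17 (-0.01). Between Cav1-null and C57BL/6J mice they turned for Slc1a3 (0.01), Aldoc (0.06) and Sparcl1 (-0.02) on d12, S100b on d15 (-0.03), and Gfap (0.13) and Fabp7 (-0.07) on d17. In late changes they turned for Slc1a2 (-0.14), Aldoc (-0.00) and Fabp7 (0.04) in AKR/J against C57BL/6J, S100b (0.06) in Cav1-null against C57BL/6J and Gfap (0.03) in AKR/J against Cav1-null. Library sizes alone turned late Slc1a3 of AKR/J (-0.03), Gja1 in the late phase of C57BL/6J (0.03) and between AKR/J and C57BL/6J on d12 (-0.36), Slc1a3 between Cav1-null and C57BL/6J mice on d12 (0.09), and, in AKR/J against C57BL/6J, the early change of Gja1 (0.13) and the late changes of Slc1a2 (-0.09) and Aldoc (-0.11). No filter turned late Slc1a3 of AKR/J (-0.02) and the late change of Sparcl1 in Cav1-null against C57BL/6J (0.06). The model of all libraries turned the same 2 (-0.01 and 0.06), Aldh1l1 in the late phase of C57BL/6J (-0.05), Gja1 between AKR/J and C57BL/6J on d12 (-0.01) and Sparcl1 between Cav1-null and C57BL/6J mice on d12 (-0.01). DESeq2 and its size factors turned Slc1a3 between Cav1-null and C57BL/6J mice on d12 (0.01) and the late change of Sparcl1 in Cav1-null against C57BL/6J (0.03).

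Leaving out single libraries, the log2 value crossed 0 in the ranges given here, from lowest to highest. For Gfap it was -0.35 to 0.66 (early phase of AKR/J), -0.86 to 0.08 (early phase of C57BL/6J), -0.35 to 0.18 (Cav1-null against C57BL/6J on d17), -0.04 to 1.04 (early change of AKR/J against C57BL/6J) and -0.53 to 0.26 (late change of AKR/J against Cav1-null). For S100b it was -0.17 to 2.20 (early phase of AKR/J), -0.25 to 2.28 (late phase of AKR/J), -0.21 to 1.54 (early phase of Cav1-null), -0.73 to 1.78 (AKR/J against C57BL/6J on d15), -0.77 to 0.21 (AKR/J against C57BL/6J on d17), -0.12 to 0.81 (Cav1-null against C57BL/6J on d15), -0.25 to 0.47 (Cav1-null against C57BL/6J on d17), -1.79 to 0.67 (early change of AKR/J against C57BL/6J), -1.92 to 0.60 (late change of AKR/J against C57BL/6J), -0.69 to 0.23 (late change of Cav1-null against C57BL/6J), -0.43 to 1.94 (early change of AKR/J against Cav1-null) and -1.78 to 0.71 (late change of AKR/J against Cav1-null). For Slc1a3 it was -0.09 to 0.20 (late phase of AKR/J), -0.15 to 0.43 (late phase of C57BL/6J), -0.18 to 0.01 (early phase of Cav1-null), -0.24 to 0.29 (Cav1-null against C57BL/6J on d12) and -0.36 to 0.20 (late change of AKR/J against C57BL/6J). For Aldh1l1 it was -0.42 to 0.31 (late phase of C57BL/6J). For Gja1 it was -0.42 to 0.23 (late phase of C57BL/6J) and -0.09 to 0.37 (AKR/J against C57BL/6J on d12). For Fabp7 it was -0.06 to 0.21 (late phase of Cav1-null) and -0.51 to 0.14 (late change of AKR/J against C57BL/6J). For Aqp4 it was -0.41 to 0.10 (AKR/J against C57BL/6J on d12) and -0.62 to 0.01 (early change of Cav1-null against C57BL/6J). For Aldoc it was -0.63 to 0.56 (Cav1-null against C57BL/6J on d12) and -0.09 to 0.35 (late change of AKR/J against C57BL/6J). For Sparcl1 it was -0.41 to 0.39 (Cav1-null against C57BL/6J on d12) and -0.28 to 0.24 (late change of Cav1-null against C57BL/6J). For Slc1a2 it was -0.11 to 0.40 (early change of AKR/J against C57BL/6J) and -0.03 to 0.41 (late change of AKR/J against C57BL/6J).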
